A study of Mus musculus with 20 samples.

Results

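The genes described here are 34 genes of glycolysis and of the response to low oxygen, chosen by symbol and matched to Ensembl gene IDs of mouse build GRCm38. The choice was made with earlier results of these data known, so counts of members that passed are not independent support. All 34 were found among the 39179 gene IDs counted in each of 20 RNA-seq libraries of mouse CD4 T cells, and all 34 passed the filter on low counts in both parts of the series. By role they fell into 2 glucose transporters, 9 enzymes of upper glycolysis (glucose to triose phosphate), 6 enzymes of lower glycolysis (triose phosphate to pyruvate), 4 lactate enzymes and transporters, 3 regulators of glycolytic flux, 3 genes of the HIF-1alpha subunit and its prolyl hydroxylases, and 7 other hypoxia-response genes.

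The study asked whether Th17 cells, which are IL-17-producing helper T cells, need their own IL-6 receptor after transfer into mice. All cells came from C57BL/6 mice with the Il17f/Thy1.1 reporter, in which Thy1.1 marks cells that express Il17f. In the transfer part, Il6ra-/- cells (CD45.2) and wild-type cells (CD45.1) were cultured for 6 days with irradiated feeder cells and with 20 ng/ml hyper-IL-6 and 2.5 ng/ml TGF-beta, and Thy1.1+ cells were sorted. Hyper-IL-6 joins IL-6 to soluble IL-6 receptor in 1 protein, so that cells lacking the receptor respond too. Colon libraries (3 pools of Il6ra-deficient and 3 of wild-type cells) held CD4 T cells sorted by CD45 allele 4 weeks after 200000 cells of each genotype had been placed together into Rag1-/- mice, which lack T and B cells of their own, and the colon sort was not gated on the reporter. Libraries before transfer (2 of each genotype) held the Thy1.1+ cultured cells. In the culture part, Il6ra-/- cells cultured for 6 days with hyper-IL-6 at 63 ng/ml, wild-type cells given the same 63 ng/ml, wild-type cells cultured with IL-6 at 20 ng/ml, Il6ra-/- naive cells and wild-type naive cells gave 2 libraries each. Those cultures also held TGF-beta at 2.5 ng/ml, and all 10 libraries of that part, naive ones included, are labelled as stimulated for 4 h with PMA and ionomycin, which activate T cells without a receptor signal.

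Glycolysis splits glucose into pyruvate and yields ATP without oxygen, and activated T cells, Th17 cells among them, take up much glucose and release lactate even where oxygen is present. HIF-1alpha, the oxygen-sensitive subunit of the HIF-1 transcription factor, raises transcription of many glycolytic genes, and prolyl hydroxylases mark it for degradation while oxygen is present. HIF-1alpha is known to be induced during Th17 culture and to favour that lineage.

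Summed gene counts ranged between 12718633 and 23745060 in transfer libraries and between 20160774 and 46848016 in culture libraries. The 8 T cell markers summed to between 5545 and 6041 CPM (counts scaled to the library total, with TMM factors within a part) in colon libraries and between 4261 and 7529 CPM before transfer. Wild-type library 1 before transfer differed from the rest: ribosomal protein genes took 3.19% of its counts against 1.01% to 1.54% in the 9 other transfer libraries. Wild-type colon library 2 differed in having 4.28% of counts in mitochondrial genes. The members' median change in the colon is also given without this pair. Libraries carry their label's replicate number, 0 to 2 in the colon, 0 and 1 before transfer and 1 and 2 in the culture part, and values are listed in that order. Il6ra, the deleted gene, does not check the genotype labels. It had 4.85, 3.46 and 2.53 CPM in Il6ra-deficient and 10.7, 4.32 and 5.40 CPM in wild-type colon libraries, and 80.6 and 123 CPM in Il6ra-deficient and 84.2 and 72.8 CPM in wild-type libraries before transfer. In the culture part it had 32.3 and 31.8 CPM in Il6ra-deficient and 39.8 and 39.2 CPM in wild-type hyper-IL-6 cultures, 37.1 and 30.6 CPM in IL-6 cultures, and 199 and 213 CPM in Il6ra-deficient and 270.2 and 421 CPM in wild-type naive cells. The genotypes overlapped in the colon and before transfer, and Il6ra was lower in both Il6ra-deficient libraries than in the wild-type pair in hyper-IL-6 culture and in naive cells. The labels do not name the deleted part of Il6ra, and transcripts outside a deleted part would still be counted. The labels say that colon libraries were pools but not how many animals each held, so p-values measure the spread between libraries.

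HIF binds DNA at the motifs ACGTG and GCGTG, and promoter windows of 5 members that fell in the colon are shown, 4 with matches (P4ha2 and Bnip3 with the most negative fold changes there, Hk2 and Slc16a3 among the 3 largest gains in culture) and Tpi1 without, so that the motif can be seen beside the gene's values. Each window runs from 250 bases before to 50 bases after the RefSeq start on GRCm38.p6, 5′ to 3′ on the gene's strand, with every match of ACGTG or GCGTG on either strand in capitals (CACGT and CACGC are the other strand's form, and CACGTG holds ACGTG on both strands).
Hk2, chr6:82774405-82774704, minus strand: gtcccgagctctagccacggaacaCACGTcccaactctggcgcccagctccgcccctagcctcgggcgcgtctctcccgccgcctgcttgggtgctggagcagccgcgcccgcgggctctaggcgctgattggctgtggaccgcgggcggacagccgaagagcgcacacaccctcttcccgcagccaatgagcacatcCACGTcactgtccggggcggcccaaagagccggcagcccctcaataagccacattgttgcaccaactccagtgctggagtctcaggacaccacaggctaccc
Slc16a3, chr11:120948817-120949116, plus strand: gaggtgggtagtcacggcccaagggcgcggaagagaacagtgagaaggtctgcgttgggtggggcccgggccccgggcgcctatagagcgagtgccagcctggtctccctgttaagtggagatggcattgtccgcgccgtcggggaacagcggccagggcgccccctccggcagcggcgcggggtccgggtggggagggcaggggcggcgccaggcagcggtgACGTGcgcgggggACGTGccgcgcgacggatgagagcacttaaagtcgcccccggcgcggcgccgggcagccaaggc
Bnip3, chr7:138909457-138909756, minus strand: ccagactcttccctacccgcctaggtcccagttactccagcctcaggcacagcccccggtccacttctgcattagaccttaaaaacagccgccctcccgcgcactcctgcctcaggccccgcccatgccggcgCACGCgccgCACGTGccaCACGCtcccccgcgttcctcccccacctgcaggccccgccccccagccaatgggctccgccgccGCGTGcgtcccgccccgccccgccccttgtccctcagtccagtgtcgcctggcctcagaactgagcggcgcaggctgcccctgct
P4ha2, chr11:54100674-54100973, plus strand: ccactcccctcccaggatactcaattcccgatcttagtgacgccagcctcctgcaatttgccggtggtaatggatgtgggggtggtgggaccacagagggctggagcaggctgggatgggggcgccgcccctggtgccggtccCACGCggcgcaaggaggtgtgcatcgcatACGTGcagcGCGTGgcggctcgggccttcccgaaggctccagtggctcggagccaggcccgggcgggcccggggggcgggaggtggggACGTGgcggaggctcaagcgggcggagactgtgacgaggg
Tpi1, chr6:124814109-124814408, minus strand: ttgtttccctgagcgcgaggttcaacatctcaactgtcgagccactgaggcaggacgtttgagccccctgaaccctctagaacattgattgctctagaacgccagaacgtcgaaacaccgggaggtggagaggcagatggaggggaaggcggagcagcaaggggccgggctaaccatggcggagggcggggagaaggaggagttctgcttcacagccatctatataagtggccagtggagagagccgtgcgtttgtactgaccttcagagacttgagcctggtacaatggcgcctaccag
Windows were found for 32 of the 34 members (not for Slc2a3 and Ero1l), 46 windows in all. At least 1 window of 30 of the 32 members (93.8%) held ACGTG or GCGTG, against 46.7% of all 27025 genes with a window. The stricter ACGTG stood in windows of 23 members (71.9%), against 21.8% of all genes. Counted by window, ACGTG or GCGTG stood in 82.6% of the members' windows and 43.8% of all windows, and ACGTG in 56.5% and 19.6%. The members' windows were also richer in G and C, with a median of 62.2% against 52.7% for all windows, and no test was made of either difference. Members were chosen as genes of glycolysis and of the response to low oxygen. A higher share of HIF motifs may thus follow from that choice and says nothing about HIF in these libraries. Tpi1 and Gpi1 held no match in their windows, which says only that these letters are absent there.

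**Figure D1:**
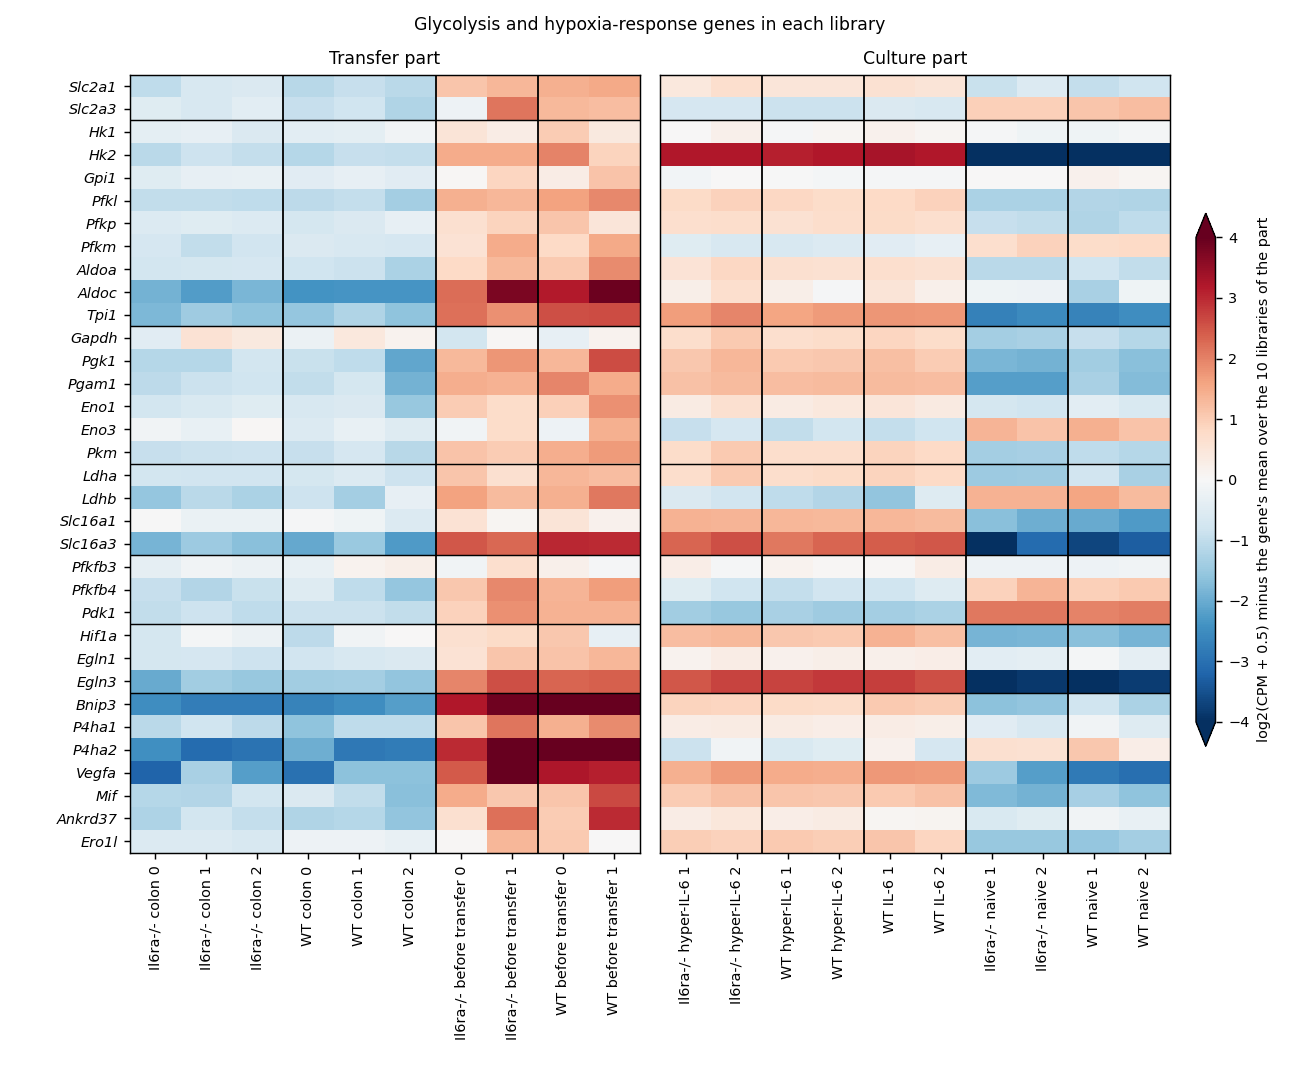
Heat map of the 34 members (rows, grouped by role) in the 20 libraries (columns, transfer part left, culture part right), coloured by log2(CPM + 0.5) minus the gene's mean over the 10 libraries of its part, with colours clipped at 4 in either direction. Colon columns are blue and before-transfer columns red for most members, and cultured columns are red and naive columns blue for most, with Slc2a3, Pfkm, Eno3, Ldhb, Pfkfb4, Pdk1 and P4ha2 the other way round in the culture part.

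Most members were higher and a minority lower in cultured than in naive cells. In Il6ra-deficient hyper-IL-6 cultures against Il6ra-deficient naive cells 24 of 34 members were higher and 7 lower, where 37.5% of all 14926 genes tested were higher and 34.4% lower. In wild-type hyper-IL-6 cultures 23 were higher and 7 lower (36.8% and 33.5% of all genes), and in wild-type IL-6 cultures 25 were higher and 7 lower (37% and 33.6% of all genes). The median log2 fold change of the members was 1.71, 1.63 and 1.68 in these comparisons, against 0.04, 0.04 and 0.05 over all genes. A set of 22 members was higher in all 3 cultures, and the 7 lower ones were the same genes in all 3, namely Slc2a3, Pfkm, Eno3, Ldhb, Pfkfb4, Pdk1 and P4ha2. How many of all genes moved alike in all 3 cultures was not counted. The wild-type cultures share their naive libraries, so the last pair of comparisons is not independent. In each of the 3 comparisons 26 members lay wholly above the naive libraries and 8 wholly below. Lack of overlap thus singles out no member, and its share over all genes was not counted. Stage, culture and sort differ together between cultured and naive libraries, and in these bulk samples fewer cells of a type and less RNA per cell cannot be told apart. The 8 T cell markers summed to between 1883 and 2080 CPM in cultured libraries, against between 4224 and 4764 CPM in naive ones. The 6 B cell markers summed to between 3.38 and 6.81 CPM in cultured libraries, against between 409 and 461 CPM in naive ones, and stromal and endothelial markers to between 4.30 and 6.41 CPM, against between 245 and 310.4 CPM. Myeloid and epithelial markers stayed at or under 33.8 CPM in the culture part. The part of these other cells in the members' levels was not tested.

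The glucose transporters moved in opposite directions in culture. Slc2a1, which encodes GLUT1, the main transporter of activated T cells, had 129.7 and 154 CPM in Il6ra-deficient hyper-IL-6 cultures, against 51.4 and 65.3 CPM in naive cells. Wild-type Slc2a1 was 134 and 136 CPM with hyper-IL-6 and 146 and 139 CPM with IL-6, against 49.2 and 55.0 CPM in naive cells. Slc2a1 lay above the naive libraries of the same genotype in every culture, and its log2 fold change in wild-type hyper-IL-6 cultures was 1.38 ± 0.13 (SE, edgeR adjusted p = 2.93e-06). Slc2a3, which encodes the high-affinity transporter GLUT3, had 18.2 and 18.4 CPM in Il6ra-deficient hyper-IL-6 cultures, against 57.7 and 57.5 CPM in naive cells. In wild-type cells Slc2a3 had 16.2 and 16.1 CPM with hyper-IL-6 and 19.7 and 18.6 CPM with IL-6, against 64.0 and 69.9 CPM in naive cells. For Slc2a3 the cultured libraries all lay below the naive ones, and its log2 fold change in wild-type hyper-IL-6 cultures was -2.05 ± 0.10 (SE, edgeR adjusted p = 1.64e-08). Per kilobase of exon, Slc2a3 made up between 5.41% and 6.35% of the 2 transporters' level in the cultured libraries and between 29.9% and 38.6% in the naive ones.

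Of the 9 upper enzymes, 5 rose in all 3 cultures. Hk2, the inducible hexokinase, which traps glucose as glucose 6-phosphate, had 260.1 and 262 CPM in Il6ra-deficient hyper-IL-6 cultures, against 0 and 0.704 CPM in naive cells. Hk2 in wild-type cells was 245 and 258 CPM with hyper-IL-6 and 279 and 262 CPM with IL-6, against 0.929 and 0.720 CPM in naive cells. With Hk2 no cultured library overlapped the naive ones, and its log2 fold change in wild-type hyper-IL-6 cultures was 8.26 ± 0.33 (SE, edgeR adjusted p = 4.45e-09). Naive libraries held only 0 and 18 counts of Hk2 in Il6ra-deficient cells and 19 and 17 in wild-type ones, so this fold is a rough size. Tpi1, triose phosphate isomerase, had 568 and 688 CPM in Il6ra-deficient hyper-IL-6 cultures, against 26.8 and 30.2 CPM in naive cells. Wild-type Tpi1 was 537 and 580.2 CPM with hyper-IL-6 and 612 and 598 CPM with IL-6, against 27.6 and 31.6 CPM in naive cells. Tpi1 lay above the naive libraries of the same genotype in every culture, and its log2 fold change in wild-type hyper-IL-6 cultures was 4.24 ± 0.13 (SE, edgeR adjusted p = 1.07e-09). Its change ranked behind those of Hk2, Egln3, Slc16a3 and Vegfa in wild-type hyper-IL-6 cultures. Hk1, the constitutive hexokinase, had 207 and 236 CPM in Il6ra-deficient hyper-IL-6 cultures, against 199 and 182 CPM in naive cells. In wild-type cells Hk1 had 201 and 217 CPM with hyper-IL-6 and 231 and 219.5 CPM with IL-6, against 183 and 196 CPM in naive cells. For Hk1 the cultured libraries all lay above the naive ones, and its log2 fold change in wild-type hyper-IL-6 cultures was 0.14 ± 0.10 (SE, edgeR adjusted p = 0.224). It passed in IL-6 cultures alone (edgeR adjusted p = 0.0421). That call was lost with RLE scaling, DESeq2, the replicate block, a fit of the compared groups only or any 1 of 3 libraries left out. Pfkm, the muscle form of phosphofructokinase and the upper enzyme that fell, had 11.8 and 10.5 CPM in Il6ra-deficient hyper-IL-6 cultures, against 26.9 and 31.9 CPM in naive cells. Pfkm in wild-type cells was 10.6 and 11.3 CPM with hyper-IL-6 and 12.0 and 13.1 CPM with IL-6, against 28.1 and 29.4 CPM in naive cells. With Pfkm no cultured library overlapped the naive ones, and its log2 fold change in wild-type hyper-IL-6 cultures was -1.39 ± 0.14 (SE, edgeR adjusted p = 4.02e-06). Pfkl and Pfkp, the liver and platelet forms of that enzyme, and Aldoa, the main aldolase, rose with log2 fold changes between 1.52 and 1.99 in wild-type hyper-IL-6 cultures. Gpi1, the isomerase between hexokinase and phosphofructokinase, had -0.075 in Il6ra-deficient hyper-IL-6, -0.18 in wild-type hyper-IL-6 and -0.17 in IL-6 cultures and passed in none. Aldoc passed in IL-6 cultures alone (log2 fold change 1.20, adjusted p = 0.0217), a call lost without culture library 1 or naive library 1 (adjusted p = 0.106 and 0.102).

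Of the 6 lower enzymes, 5 rose and Eno3 fell in every culture. Pgam1, phosphoglycerate mutase, had 51.3 and 55.5 CPM in Il6ra-deficient hyper-IL-6 cultures, against 4.49 and 4.50 CPM in naive cells. Wild-type Pgam1 was 53.6 and 54.6 CPM with hyper-IL-6 and 55.0 and 54.0 CPM with IL-6, against 8.85 and 6.48 CPM in naive cells. Pgam1 lay above the naive libraries of the same genotype in every culture, and its log2 fold change in wild-type hyper-IL-6 cultures was 2.82 ± 0.14 (SE, edgeR adjusted p = 1.97e-08). Pgk1, phosphoglycerate kinase, had 242 and 290.0 CPM in Il6ra-deficient hyper-IL-6 cultures, against 31.8 and 30.7 CPM in naive cells. In wild-type cells Pgk1 had 239 and 241 CPM with hyper-IL-6 and 262 and 234 CPM with IL-6, against 43.7 and 35.4 CPM in naive cells. For Pgk1 the cultured libraries all lay above the naive ones, and its log2 fold change in wild-type hyper-IL-6 cultures was 2.60 ± 0.13 (SE, edgeR adjusted p = 2.09e-08). Eno1, the main enolase, had 571 and 722 CPM in Il6ra-deficient hyper-IL-6 cultures, against 279 and 264 CPM in naive cells. Eno1 in wild-type cells was 569.8 and 617 CPM with hyper-IL-6 and 641 and 591 CPM with IL-6, against 341 and 299 CPM in naive cells. With Eno1 no cultured library overlapped the naive ones, and its log2 fold change in wild-type hyper-IL-6 cultures was 0.89 ± 0.12 (SE, edgeR adjusted p = 5.99e-05). Eno3, the muscle enolase, had 5.87 and 7.22 CPM in Il6ra-deficient hyper-IL-6 cultures, against 30.8 and 26.3 CPM in naive cells. Wild-type Eno3 was 5.62 and 6.80 CPM with hyper-IL-6 and 5.81 and 6.46 CPM with IL-6, against 32.5 and 26.6 CPM in naive cells. Eno3 lay below the naive libraries of the same genotype in every culture, and its log2 fold change in wild-type hyper-IL-6 cultures was -2.25 ± 0.18 (SE, edgeR adjusted p = 7.45e-07). The 2 enolase genes thus moved in opposite directions. Gapdh, the triose phosphate dehydrogenase, and Pkm, pyruvate kinase, rose with log2 fold changes of 2.22 and 2.24 in Il6ra-deficient and 1.74 and 1.77 in wild-type hyper-IL-6 cultures.

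Among the lactate genes, Ldha and both transporters rose while Ldhb fell. Slc16a3, which encodes MCT4, a lactate exporter, had 143 and 172 CPM in Il6ra-deficient hyper-IL-6 cultures, against 1.03 and 2.93 CPM in naive cells. In wild-type cells Slc16a3 had 124 and 142 CPM with hyper-IL-6 and 154 and 160.5 CPM with IL-6, against 1.76 and 2.42 CPM in naive cells. For Slc16a3 the cultured libraries all lay above the naive ones, and its log2 fold change in wild-type hyper-IL-6 cultures was 5.98 ± 0.28 (SE, edgeR adjusted p = 1.5e-08). Slc16a1, which encodes MCT1, a lactate transporter that works in both directions, had 264 and 253 CPM in Il6ra-deficient hyper-IL-6 cultures, against 31.0 and 25.1 CPM in naive cells. Slc16a1 in wild-type cells was 249.6 and 243 CPM with hyper-IL-6 and 248 and 238 CPM with IL-6, against 24.1 and 20.3 CPM in naive cells. With Slc16a1 no cultured library overlapped the naive ones, and its log2 fold change in wild-type hyper-IL-6 cultures was 3.47 ± 0.13 (SE, edgeR adjusted p = 2.52e-09). Ldha, the lactate dehydrogenase subunit that favours making lactate, had 1569 and 1960.4 CPM in Il6ra-deficient hyper-IL-6 cultures, against 352 and 358 CPM in naive cells. Wild-type Ldha was 1575 and 1645 CPM with hyper-IL-6 and 1775 and 1649.6 CPM with IL-6, against 566 and 387 CPM in naive cells. Ldha lay above the naive libraries of the same genotype in every culture, and its log2 fold change in wild-type hyper-IL-6 cultures was 1.76 ± 0.16 (SE, edgeR adjusted p = 2.95e-06). Ldhb, the subunit that favours making pyruvate, had 4.95 and 4.33 CPM in Il6ra-deficient hyper-IL-6 cultures, against 21.1 and 21.3 CPM in naive cells. In wild-type cells Ldhb had 3.53 and 3.19 CPM with hyper-IL-6 and 2.25 and 5.25 CPM with IL-6, against 24.2 and 19.1 CPM in naive cells. For Ldhb the cultured libraries all lay below the naive ones, and its log2 fold change in wild-type hyper-IL-6 cultures was -2.69 ± 0.32 (SE, edgeR adjusted p = 1.84e-05). Ldhb was between 0.267% and 0.666% of the summed lactate dehydrogenase level per kilobase in cultured libraries and between 8.28% and 11.2% in naive ones.

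Of the flux regulators, Pdk1 and Pfkfb4 fell in all 3 cultures, and Pfkfb3 was higher in Il6ra-deficient hyper-IL-6 and in IL-6 cultures. Pdk1, the kinase that shuts pyruvate out of the citrate cycle and a textbook HIF-1 target, had 55.8 and 50.7 CPM in Il6ra-deficient hyper-IL-6 cultures, against 637 and 626 CPM in naive cells. Pdk1 in wild-type cells was 58.6 and 53.9 CPM with hyper-IL-6 and 56.4 and 60.3 CPM with IL-6, against 579 and 602 CPM in naive cells. With Pdk1 no cultured library overlapped the naive ones, and its log2 fold change in wild-type hyper-IL-6 cultures was -3.39 ± 0.10 (SE, edgeR adjusted p = 7.6e-10). Pdk1 fell more than any other member in each culture. Pfkfb4, which sets the level of an activator of phosphofructokinase, had 5.48 and 4.33 CPM in Il6ra-deficient hyper-IL-6 cultures, against 15.1 and 20.9 CPM in naive cells. Wild-type Pfkfb4 was 3.79 and 4.43 CPM with hyper-IL-6 and 4.25 and 5.28 CPM with IL-6, against 15.6 and 16.7 CPM in naive cells. Pfkfb4 lay below the naive libraries of the same genotype in every culture, and its log2 fold change in wild-type hyper-IL-6 cultures was -1.98 ± 0.22 (SE, edgeR adjusted p = 1.05e-05). Pfkfb3, another enzyme of that kind, had 96.4 and 77.1 CPM in Il6ra-deficient hyper-IL-6 cultures, against 68.4 and 69.0 CPM in naive cells. In wild-type cells Pfkfb3 had 88.2 and 83.1 CPM with hyper-IL-6 and 82.0 and 97.3 CPM with IL-6, against 69.4 and 72.1 CPM in naive cells. For Pfkfb3 the cultured libraries all lay above the naive ones, and its log2 fold change in wild-type hyper-IL-6 cultures was 0.27 ± 0.12 (SE, edgeR adjusted p = 0.0624). Its adjusted p was 0.0277 in Il6ra-deficient hyper-IL-6 and 0.0263 in IL-6 cultures. Without 1 library at a time the first call was lost for 3 of 4 libraries and the second likewise for 2.

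All 3 HIF pathway members rose in all 3 cultures. Egln3, the prolyl hydroxylase PHD3, itself a HIF target, had 219.6 and 252 CPM in Il6ra-deficient hyper-IL-6 cultures, against 1.5 and 2.19 CPM in naive cells. Egln3 in wild-type cells was 254 and 275 CPM with hyper-IL-6 and 263 and 231 CPM with IL-6, against 1.76 and 2.33 CPM in naive cells. With Egln3 no cultured library overlapped the naive ones, and its log2 fold change in wild-type hyper-IL-6 cultures was 7.00 ± 0.18 (SE, edgeR adjusted p = 4.29e-10). Egln3 had the smallest p of all members in each culture. Hif1a had 1007 and 1052 CPM in Il6ra-deficient hyper-IL-6 cultures, against 119 and 120.3 CPM in naive cells. Wild-type Hif1a was 899 and 889 CPM with hyper-IL-6 and 1118 and 991 CPM with IL-6, against 133 and 119 CPM in naive cells. Hif1a lay above the naive libraries of the same genotype in every culture, and its log2 fold change in wild-type hyper-IL-6 cultures was 2.83 ± 0.10 (SE, edgeR adjusted p = 2.14e-09). Egln1, the main oxygen sensor PHD2, had 124 and 138 CPM in Il6ra-deficient hyper-IL-6 cultures, against 83.1 and 85.1 CPM in naive cells. In wild-type cells Egln1 had 126 and 132 CPM with hyper-IL-6 and 129.6 and 135 CPM with IL-6, against 106 and 87.9 CPM in naive cells. For Egln1 the cultured libraries all lay above the naive ones, and its log2 fold change in wild-type hyper-IL-6 cultures was 0.41 ± 0.10 (SE, edgeR adjusted p = 0.00474). Egln3 was between 69.7% and 73.8% of the summed Egln1 and Egln3 level per kilobase in cultured libraries, against between 2.19% and 3.46% in naive ones.

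Of the 7 other hypoxia-response genes, 6 rose in wild-type hyper-IL-6 cultures. Vegfa, the vascular growth factor, had 30.4 and 37.2 CPM in Il6ra-deficient hyper-IL-6 cultures, against 3.77 and 1.99 CPM in naive cells. Vegfa in wild-type cells was 32.1 and 31.5 CPM with hyper-IL-6 and 38.4 and 37.4 CPM with IL-6, against 1.12 and 0.932 CPM in naive cells. With Vegfa no cultured library overlapped the naive ones, and its log2 fold change in wild-type hyper-IL-6 cultures was 4.95 ± 0.26 (SE, edgeR adjusted p = 3.58e-08). Mif, a secreted cytokine, had 289.8 and 324 CPM in Il6ra-deficient hyper-IL-6 cultures, against 41.8 and 38.1 CPM in naive cells. Wild-type Mif was 305 and 299 CPM with hyper-IL-6 and 296 and 320.4 CPM with IL-6, against 55.9 and 46.4 CPM in naive cells. Mif lay above the naive libraries of the same genotype in every culture, and its log2 fold change in wild-type hyper-IL-6 cultures was 2.56 ± 0.11 (SE, edgeR adjusted p = 1.02e-08). Ankrd37, a HIF target of little known function, had 6.09 and 6.78 CPM in Il6ra-deficient hyper-IL-6 cultures, against 3.00 and 3.32 CPM in naive cells. In wild-type cells Ankrd37 had 5.91 and 6.19 CPM with hyper-IL-6 and 5.13 and 5.22 CPM with IL-6, against 4.35 and 3.81 CPM in naive cells. For Ankrd37 the cultured libraries all lay above the naive ones, and its log2 fold change in wild-type hyper-IL-6 cultures was 0.57 ± 0.20 (SE, edgeR adjusted p = 0.0228). In IL-6 cultures Ankrd37 did not pass (adjusted p = 0.139). Its call in wild-type hyper-IL-6 cultures was lost without either culture library or naive library 2 (adjusted p = 0.0652, 0.0954 and 0.0876). P4ha2, a collagen prolyl hydroxylase and the one that fell, had 1.87 and 3.40 CPM in Il6ra-deficient hyper-IL-6 cultures, against 6.30 and 6.14 CPM in naive cells. P4ha2 in wild-type cells was 2.33 and 2.58 CPM with hyper-IL-6 and 4.44 and 2.25 CPM with IL-6, against 8.65 and 4.75 CPM in naive cells. With P4ha2 no cultured library overlapped the naive ones, and its log2 fold change in wild-type hyper-IL-6 cultures was -1.44 ± 0.40 (SE, edgeR adjusted p = 0.00756). That call was lost in wild-type hyper-IL-6 cultures without culture library 1 or naive library 1 (adjusted p = 0.0501 and 0.075). In IL-6 cultures it was lost without culture library 2 or naive library 1 (0.261 and 0.347), and in Il6ra-deficient cultures without culture library 1 or either naive library (0.127, 0.0559 and 0.0512). P4ha1, its relative, Bnip3, a mitochondrial protein of mitophagy and cell death, and Ero1l, an oxidase of the endoplasmic reticulum, rose with log2 fold changes of 0.62, 1.89 and 2.48 in wild-type hyper-IL-6 cultures.

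**Figure D2:**
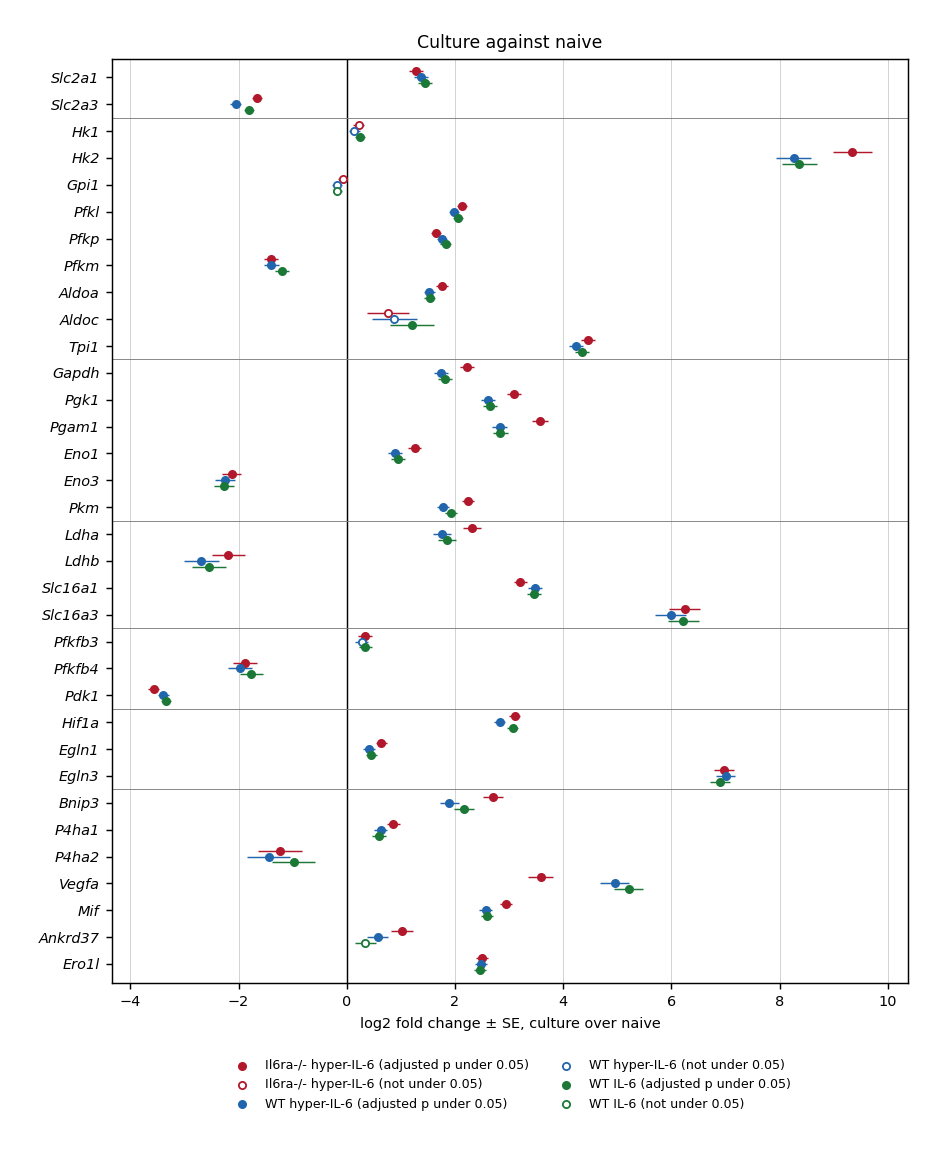
Log2 fold change (horizontal axis, bars show the SE of the fit) of each member (rows, grouped by role) in Il6ra-deficient hyper-IL-6, wild-type hyper-IL-6 and wild-type IL-6 cultures over naive cells of the same genotype, with filled points for adjusted p under 0.05. Hk2, Egln3 and Slc16a3 lie farthest to the right, Pdk1 and Ldhb farthest to the left, and the 3 cultures lie close together for most members.

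Nearly all members were lower in the colon 4 weeks after transfer. In Il6ra-deficient colon cells against cells before transfer 0 of 34 members were higher and 29 lower, where 13.8% of all 14225 genes tested were higher and 13.2% lower. In wild-type cells 0 were higher and 29 lower, against 17.1% and 15.8% of all genes. The median log2 fold change of the members was -2.16 in Il6ra-deficient cells and -2.50 in wild-type ones, beside medians of all genes of -0.002 and -0.02. A set of 28 members was lower in both genotypes, Ero1l passed in Il6ra-deficient cells only and Eno3 in wild-type cells only, and Gapdh, Slc16a1, Pfkfb3 and Hif1a passed in neither. How many of all genes were lower in both genotypes was not counted. In each genotype the colon libraries of 31 members lay wholly below those before transfer and those of 3 overlapped them. The share of all genes without overlap was not counted. Members summed to between 4091 and 4626 CPM in Il6ra-deficient colon libraries, against 13046 and 15982 CPM before transfer, and to between 3887 and 4686 CPM in wild-type colon libraries, against 17268 and 17404 CPM before transfer. Without the 2 wild-type libraries that stood apart, the members' median log2 fold change was -2.20 in Il6ra-deficient colon cells and -2.29 in wild-type ones. The medians of all genes were then -0.04 and 0.008. That fit kept 1 wild-type library before transfer. Within experiment 1 the members' median log2 difference was -1.96 in Il6ra-deficient colon cells and -2.22 in wild-type ones, and within experiment 2 it was -2.26 and -2.70. Stage, time in the host and the lack of a Thy1.1 gate differ together between these libraries and cannot be told apart.

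Transcripts of other cell types were present in colon libraries. The 10 epithelial markers summed to between 126 and 314 CPM in Il6ra-deficient and between 166 and 646 CPM in wild-type colon libraries, against between 9.55 and 38.3 CPM in the 4 libraries before transfer, and 8 of 10 were higher in each genotype. The 11 myeloid markers summed to between 116 and 395 CPM in Il6ra-deficient and between 157 and 408 CPM in wild-type colon libraries, against between 18 and 66.6 CPM before transfer, with 8 and 10 of 11 higher. Stromal and endothelial markers summed to between 118 and 179 CPM in colon libraries, against between 127 and 149 CPM before transfer, and erythroid markers to between 4.77 and 11.6 CPM, against at most 0.0991 CPM. The 6 B cell markers summed to between 16.1 and 83.7 CPM in colon libraries, against between 50.1 and 139 CPM before transfer. The part of these cells in the members' levels was not tested.

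Both glucose transporters fell in the colon. Slc2a1 had 49.4, 63.6 and 66.3 CPM in Il6ra-deficient colon libraries, against 216 and 249 CPM before transfer. Wild-type Slc2a1 was 46.5, 52.0 and 46.9 CPM in the colon, against 267 and 289 CPM before transfer. In both genotypes Slc2a1 was lower in every colon library than in any library before transfer. Slc2a1 had a log2 fold change of -1.96 ± 0.19 in Il6ra-deficient cells and -2.52 ± 0.19 in wild-type cells (SE, edgeR adjusted p = 4.48e-05 and 1.1e-05). Slc2a3 had 227, 203 and 233 CPM in Il6ra-deficient colon libraries, against 272 and 1396 CPM before transfer. In wild-type cells Slc2a3 had 166, 180.2 and 136 CPM in the colon, against 779 and 739.7 CPM before transfer. For Slc2a3 no colon library reached those before transfer of its genotype. Slc2a3 had a log2 fold change of -1.92 ± 0.48 in Il6ra-deficient cells and -2.24 ± 0.48 in wild-type cells (SE, edgeR adjusted p = 0.013 and 0.00566). The Il6ra-deficient libraries before transfer lay far apart for Slc2a3, and without library 1 the log2 fold change in Il6ra-deficient cells was -0.303 (adjusted p = 0.393). Without the 2 wild-type libraries that stood apart, that in wild-type cells was -2.21 (adjusted p = 0.0573).

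All 9 upper enzymes fell in both genotypes. Aldoc, the aldolase form best known from brain, had 4.80, 3.71 and 5.06 CPM in Il6ra-deficient colon libraries, against 92.9 and 268 CPM before transfer. Aldoc in wild-type cells was 3.23, 3.34 and 3.32 CPM in the colon, against 179 and 299 CPM before transfer. The colon libraries of Aldoc were all lower than those before transfer. Aldoc had a log2 fold change of -5.31 ± 0.42 in Il6ra-deficient cells and -6.18 ± 0.44 in wild-type cells (SE, edgeR adjusted p = 1.67e-05 and 8.43e-06). Tpi1 had 71.0, 93.0 and 81.4 CPM in Il6ra-deficient colon libraries, against 1150.4 and 890.0 CPM before transfer. Wild-type Tpi1 was 84.4, 109 and 81.1 CPM in the colon, against 1490.1 and 1532 CPM before transfer. In both genotypes Tpi1 was lower in every colon library than in any library before transfer. Tpi1 had a log2 fold change of -3.64 ± 0.22 in Il6ra-deficient cells and -4.04 ± 0.23 in wild-type cells (SE, edgeR adjusted p = 5.46e-06 and 2.94e-06). Hk1 had 266, 275 and 235 CPM in Il6ra-deficient colon libraries, against 496 and 429 CPM before transfer. In wild-type cells Hk1 had 260.3, 266 and 319 CPM in the colon, against 712 and 453 CPM before transfer. For Hk1 no colon library reached those before transfer of its genotype. Hk1 had a log2 fold change of -0.84 ± 0.22 in Il6ra-deficient cells and -1.05 ± 0.22 in wild-type cells (SE, edgeR adjusted p = 0.0172 and 0.00525). Hk2 fell with log2 fold changes of -2.45 in Il6ra-deficient cells and -2.55 in wild-type ones, and the 5 others lay between -2.37 and -0.89 in Il6ra-deficient cells and between -2.90 and -1.20 in wild-type ones. Gpi1 lost its call in wild-type cells without library 1 before transfer (log2 fold change -0.72, adjusted p = 0.0806), and in Il6ra-deficient cells without any 1 colon library or library 1 before transfer (adjusted p between 0.0939 and 0.364). Hk1 lost its call in Il6ra-deficient cells without colon library 0 or 2 or library 0 before transfer (0.0503, 0.0759 and 0.0924).

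Of the lower enzymes, Pgk1, Pgam1, Eno1 and Pkm fell in both genotypes, Eno3 in wild-type cells only, and Gapdh passed in neither. Pgk1 had 3.87, 3.87 and 5.27 CPM in Il6ra-deficient colon libraries, against 23.1 and 32.3 CPM before transfer. Pgk1 in wild-type cells was 4.64, 4.27 and 1.80 CPM in the colon, against 23.5 and 58.5 CPM before transfer. The colon libraries of Pgk1 were all lower than those before transfer. Pgk1 had a log2 fold change of -2.67 ± 0.44 in Il6ra-deficient cells and -3.51 ± 0.45 in wild-type cells (SE, edgeR adjusted p = 0.00147 and 0.000307). Pgam1 had 5.61, 6.50 and 6.71 CPM in Il6ra-deficient colon libraries, against 33.9 and 32.6 CPM before transfer. Wild-type Pgam1 was 5.91, 7.21 and 2.91 CPM in the colon, against 48.5 and 34.8 CPM before transfer. In both genotypes Pgam1 was lower in every colon library than in any library before transfer. Pgam1 had a log2 fold change of -2.41 ± 0.33 in Il6ra-deficient cells and -2.95 ± 0.33 in wild-type cells (SE, edgeR adjusted p = 0.000453 and 0.000128). Gapdh had 17.3, 35.7 and 31.4 CPM in Il6ra-deficient colon libraries, against 14.2 and 24.4 CPM before transfer. In wild-type cells Gapdh had 20.2, 32.0 and 26.3 CPM in the colon, against 19.0 and 26.5 CPM before transfer. For Gapdh colon and before-transfer libraries overlapped in both genotypes. Gapdh had a log2 fold change of 0.55 ± 0.36 in Il6ra-deficient cells and 0.20 ± 0.35 in wild-type cells (SE, edgeR adjusted p = 0.298 and 0.679). Eno1 and Pkm fell with log2 fold changes of -1.49 and -1.96 in Il6ra-deficient cells and -2.32 and -2.48 in wild-type ones. Eno3 had -0.50 ± 0.42 in Il6ra-deficient cells (SE, adjusted p = 0.426) and -1.31 ± 0.42 in wild-type cells (adjusted p = 0.0357), and without wild-type library 1 before transfer the wild-type value was -0.272 (adjusted p = 0.615). Its call was also lost without any 1 wild-type colon library (adjusted p between 0.0701 and 0.0847).

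Counts of several members are uncertain, since stretches of their transcripts also stand in other annotated genes. How many reads this moved was not measured. Of the 50-base stretches of the Gapdh transcript, 82.5% also stood in other annotated genes, 209 of them pseudogenes, and the share was 76.4% for Mif, 72.2% for Eno1, 68.0% for Pgk1, 62.4% for Bnip3 and 41.5% for Pgam1. Only reads with 1 alignment were counted, and alignments that were not unique numbered between 0.891 and 1.07 per counted read in transfer libraries other than wild-type library 1 before transfer, which had 1.66, against between 0.414 and 0.505 in culture libraries. Of the 19 members with under 5% of such stretches, 16 were lower in the colon in each genotype, and of the 15 others 13 were. In wild-type hyper-IL-6 cultures the sides differed more. Of the 19 members with under 5% of such stretches 10 were higher and 6 lower, with a median log2 fold change of 0.62, and of the 15 others 13 were higher and 1 lower, with a median of 1.76. In Il6ra-deficient hyper-IL-6 cultures 11 of the 19 were higher and 6 lower (median 0.76), and 13 of the 15 others were higher and 1 lower (median 2.24). In IL-6 cultures 13 of the 19 were higher and 6 lower (median 0.59), and 12 of the 15 others were higher and 1 lower (median 1.85). The part of shared stretches in these differences was not tested.

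Of the lactate genes, Slc16a3, Ldha and Ldhb fell in both genotypes and Slc16a1 passed in neither. Slc16a3 had 16.9, 22.9 and 19.5 CPM in Il6ra-deficient colon libraries, against 359 and 314 CPM before transfer. Slc16a3 in wild-type cells was 14.9, 22.3 and 12.7 CPM in the colon, against 512 and 501 CPM before transfer. The colon libraries of Slc16a3 were all lower than those before transfer. Slc16a3 had a log2 fold change of -4.09 ± 0.26 in Il6ra-deficient cells and -4.92 ± 0.26 in wild-type cells (SE, edgeR adjusted p = 5.46e-06 and 2.92e-06). Ldhb had 0.693, 1.15 and 0.958 CPM in Il6ra-deficient colon libraries, against 10.1 and 7.86 CPM before transfer. Wild-type Ldhb was 1.48, 0.846 and 2.28 CPM in the colon, against 8.73 and 14.5 CPM before transfer. In both genotypes Ldhb was lower in every colon library than in any library before transfer. Ldhb had a log2 fold change of -3.27 ± 0.47 in Il6ra-deficient cells and -2.93 ± 0.45 in wild-type cells (SE, edgeR adjusted p = 0.000617 and 0.000962). Ldhb had between 12 and 33 counts in each colon library. Slc16a1 had 42.2, 35.4 and 35.9 CPM in Il6ra-deficient colon libraries, against 64.6 and 45.2 CPM before transfer. In wild-type cells Slc16a1 had 41.6, 37.8 and 29.3 CPM in the colon, against 61.3 and 48.3 CPM before transfer. For Slc16a1 no colon library reached those before transfer of its genotype. Slc16a1 had a log2 fold change of -0.54 ± 0.23 in Il6ra-deficient cells and -0.60 ± 0.23 in wild-type cells (SE, edgeR adjusted p = 0.11 and 0.0678). Per kilobase, Slc16a3 was between 23.0% and 35.0% of the 2 lactate transporters' level in colon libraries and between 82.2% and 89.6% before transfer. Ldha fell with log2 fold changes of -1.64 and -1.96.

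Of the regulators, Pfkfb4 and Pdk1 fell and Pfkfb3 did not pass. Pfkfb4 had 3.18, 2.55 and 3.22 CPM in Il6ra-deficient colon libraries, against 14.2 and 25.8 CPM before transfer. Pfkfb4 in wild-type cells was 4.36, 2.89 and 1.87 CPM in the colon, against 17.1 and 21.5 CPM before transfer. The colon libraries of Pfkfb4 were all lower than those before transfer. Pfkfb4 had a log2 fold change of -2.74 ± 0.38 in Il6ra-deficient cells and -2.67 ± 0.38 in wild-type cells (SE, edgeR adjusted p = 0.000535 and 0.000596). Pdk1 had 55.0, 60.7 and 54.0 CPM in Il6ra-deficient colon libraries, against 209 and 385 CPM before transfer. Wild-type Pdk1 was 59.6, 59.2 and 54.9 CPM in the colon, against 286 and 285 CPM before transfer. In both genotypes Pdk1 was lower in every colon library than in any library before transfer. Pdk1 had a log2 fold change of -2.39 ± 0.24 in Il6ra-deficient cells and -2.30 ± 0.24 in wild-type cells (SE, edgeR adjusted p = 6e-05 and 6.82e-05). Pfkfb3 had 96.9, 114 and 107 CPM in Il6ra-deficient colon libraries, against 114 and 200.1 CPM before transfer. In wild-type cells Pfkfb3 had 101.2, 139.6 and 147 CPM in the colon, against 144 and 123 CPM before transfer. For Pfkfb3 colon and before-transfer libraries overlapped in both genotypes. Pfkfb3 had a log2 fold change of -0.57 ± 0.25 in Il6ra-deficient cells and -0.047 ± 0.26 in wild-type cells (SE, edgeR adjusted p = 0.127 and 0.9).

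Both prolyl hydroxylases fell in the colon, while Hif1a did not pass. Egln3 had 25.8, 39.5 and 36.7 CPM in Il6ra-deficient colon libraries, against 403 and 633 CPM before transfer. Egln3 in wild-type cells was 39.2, 40.4 and 34.9 CPM in the colon, against 525 and 549 CPM before transfer. The colon libraries of Egln3 were all lower than those before transfer. Egln3 had a log2 fold change of -3.93 ± 0.25 in Il6ra-deficient cells and -3.81 ± 0.25 in wild-type cells (SE, edgeR adjusted p = 5.72e-06 and 7.36e-06). Egln1 had 105, 107 and 95.1 CPM in Il6ra-deficient colon libraries, against 254 and 365 CPM before transfer. Wild-type Egln1 was 99.0, 109 and 113 CPM in the colon, against 376 and 425 CPM before transfer. In both genotypes Egln1 was lower in every colon library than in any library before transfer. Egln1 had a log2 fold change of -1.60 ± 0.19 in Il6ra-deficient cells and -1.90 ± 0.20 in wild-type cells (SE, edgeR adjusted p = 0.000222 and 6.92e-05). Hif1a had 684, 1048 and 945 CPM in Il6ra-deficient colon libraries, against 1731 and 1887 CPM before transfer. In wild-type cells Hif1a had 533, 1008 and 1122 CPM in the colon, against 2338 and 891 CPM before transfer. For Hif1a colon libraries lay below those before transfer in Il6ra-deficient cells and overlapped them in wild-type cells. Hif1a had a log2 fold change of -1.02 ± 0.40 in Il6ra-deficient cells and -0.86 ± 0.40 in wild-type cells (SE, edgeR adjusted p = 0.0866 and 0.121). Wild-type library 1 before transfer, 1 of those that stood apart, had a Hif1a level within the range of the colon libraries, and with both such libraries left out, or with no filter on low counts, Hif1a passed as lower in both genotypes. Egln3 was between 24.9% and 34.9% of the summed Egln1 and Egln3 level per kilobase in colon libraries, against between 63.6% and 70.1% before transfer.

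All 7 other hypoxia-response genes fell in the Il6ra-deficient colon and 6 in the wild-type colon, and P4ha2 and Bnip3 had the most negative fold changes of the 34 members in both genotypes. P4ha2 had 0.405, 0.0823 and 0.137 CPM in Il6ra-deficient colon libraries, against 38.8 and 129 CPM before transfer. P4ha2 in wild-type cells was 0.773, 0.178 and 0.208 CPM in the colon, against 83.5 and 96.5 CPM before transfer. The colon libraries of P4ha2 were all lower than those before transfer. P4ha2 had a log2 fold change of -8.51 ± 0.70 in Il6ra-deficient cells and -7.93 ± 0.66 in wild-type cells (SE, edgeR adjusted p = 2.07e-05 and 2.1e-05). The colon libraries held 7, 1 and 2 counts of P4ha2 in Il6ra-deficient cells and 11, 4 and 3 counts in wild-type ones, so these folds are rough sizes. Bnip3 had 0.693, 0.494 and 0.479 CPM in Il6ra-deficient colon libraries, against 61.1 and 98.9 CPM before transfer. Wild-type Bnip3 was 0.562, 0.712 and 0.969 CPM in the colon, against 110.4 and 125 CPM before transfer. In both genotypes Bnip3 was lower in every colon library than in any library before transfer. Bnip3 had a log2 fold change of -7.13 ± 0.32 in Il6ra-deficient cells and -7.29 ± 0.31 in wild-type cells (SE, edgeR adjusted p = 1.23e-06 and 8.42e-07). Bnip3 had between 6 and 16 counts per colon library. Ero1l had 126, 125 and 119 CPM in Il6ra-deficient colon libraries, against 190.1 and 467 CPM before transfer. In wild-type cells Ero1l had 162, 159 and 151 CPM in the colon, against 379 and 188 CPM before transfer. For Ero1l no colon library reached those before transfer of its genotype. Ero1l had a log2 fold change of -1.41 ± 0.35 in Il6ra-deficient cells and -0.85 ± 0.35 in wild-type cells (SE, edgeR adjusted p = 0.0132 and 0.0849). Without Il6ra-deficient library 1 before transfer, the log2 fold change in Il6ra-deficient cells was -0.625 for Ero1l (adjusted p = 0.207) and -1.68 for Ankrd37 (adjusted p = 0.0649). Vegfa, Mif, Ankrd37 and P4ha1 fell in both genotypes, with log2 fold changes between -5.73 and -2.35 in Il6ra-deficient cells and between -5.26 and -2.88 in wild-type ones.

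**Figure D3:**
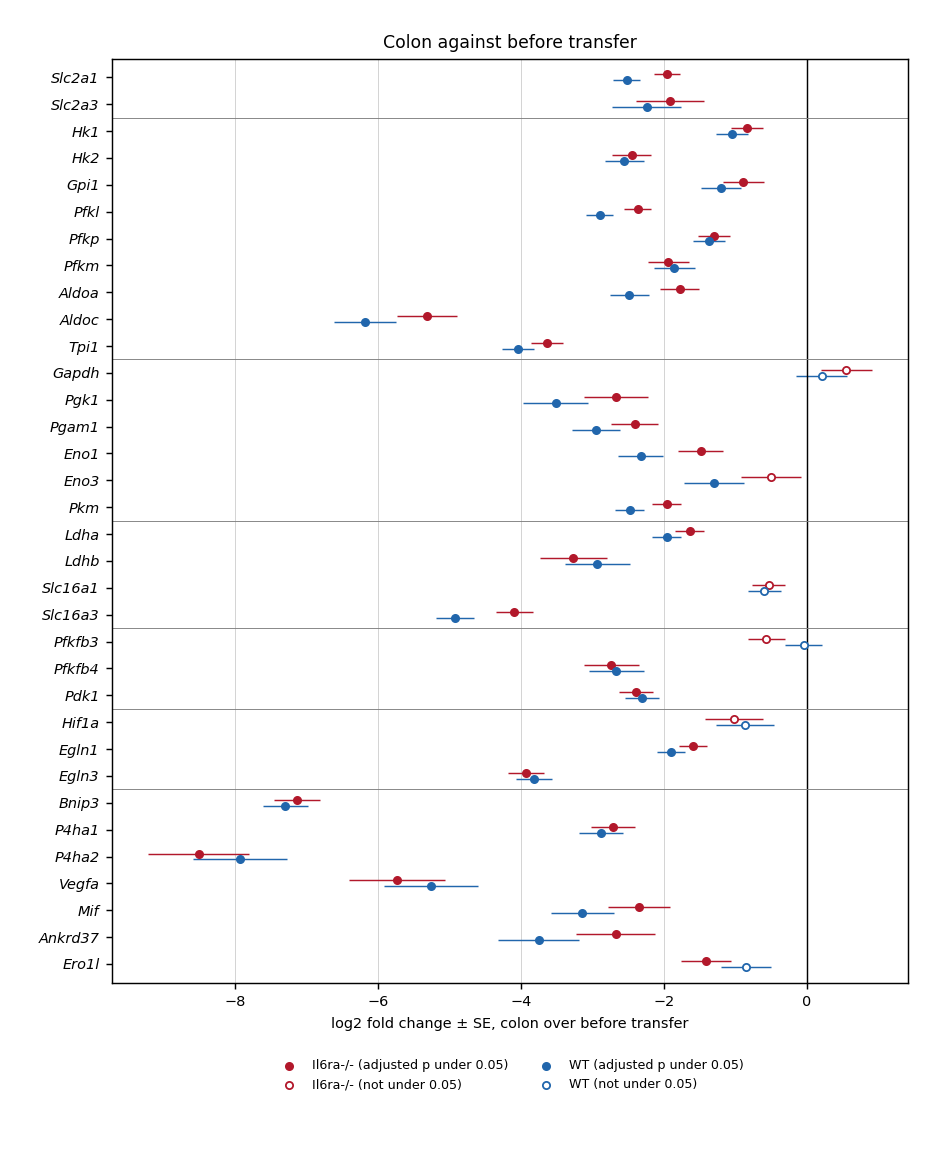
Log2 fold change (horizontal axis, bars show the SE of the fit) of each member (rows, grouped by role) in colon cells over cells before transfer, for Il6ra-deficient and wild-type cells, with filled points for adjusted p under 0.05. P4ha2, Bnip3, Aldoc and Vegfa lie farthest to the left, and Gapdh is the one member to the right of 0 in both genotypes.

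Side by side, 18 members were higher in all 3 cultures than in naive cells and lower in the colon than before transfer in both genotypes, among them Hk2, Tpi1, Ldha, Slc16a3, Egln3 and Bnip3. A further 6 were lower in all 3 cultures and lower in the colon, namely Slc2a3, Pfkm, Ldhb, Pfkfb4, Pdk1 and P4ha2. How many of all genes met either joint rule was not counted. Taken singly, between 36.8% and 37.5% of all genes were higher in the 3 cultures and between 33.5% and 34.4% lower. In the colon 13.2% of all genes were lower in Il6ra-deficient cells and 15.8% in wild-type ones. The 2 parts were normalised apart and their cultured cells differed in hyper-IL-6 dose and stimulation, so levels across them carry no test. Aldoc lay between 92.9 and 299 CPM in the cultured cells sampled before transfer and between 2.63 and 4.68 CPM in the hyper-IL-6 cultures of the culture part, and P4ha2 lay between 38.8 and 129 CPM before transfer and between 1.87 and 3.40 CPM in those cultures. Slc2a3 lay between 272 and 1396 CPM before transfer and between 16.1 and 18.4 CPM in the hyper-IL-6 cultures, while Gapdh lay between 14.2 and 26.5 CPM before transfer and between 843 and 1087 CPM in the cultures. Of the 50-base stretches of Gapdh 82.5% also stood in other annotated genes, against 0% for Aldoc, P4ha2 and Slc2a3. Alignments that were not unique were more numerous per counted read in transfer than in culture libraries. Their part in the Gapdh levels was not tested. Hk2 lay in overlapping ranges in the cultured cells of the 2 parts, between 199.9 and 425 CPM before transfer and between 245 and 262 CPM in the hyper-IL-6 cultures, and lay between 48.6 and 59.6 CPM in the colon and between 0 and 0.929 CPM in naive cells. Of the summed Hk1 and Hk2 level per kilobase, Hk2 was between 19.9% and 24.8% in colon libraries, between 38.7% and 49.9% before transfer, between 61.3% and 64.2% in cultured cells of the culture part and at most 0.718% in naive cells.

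**Figure D4:**
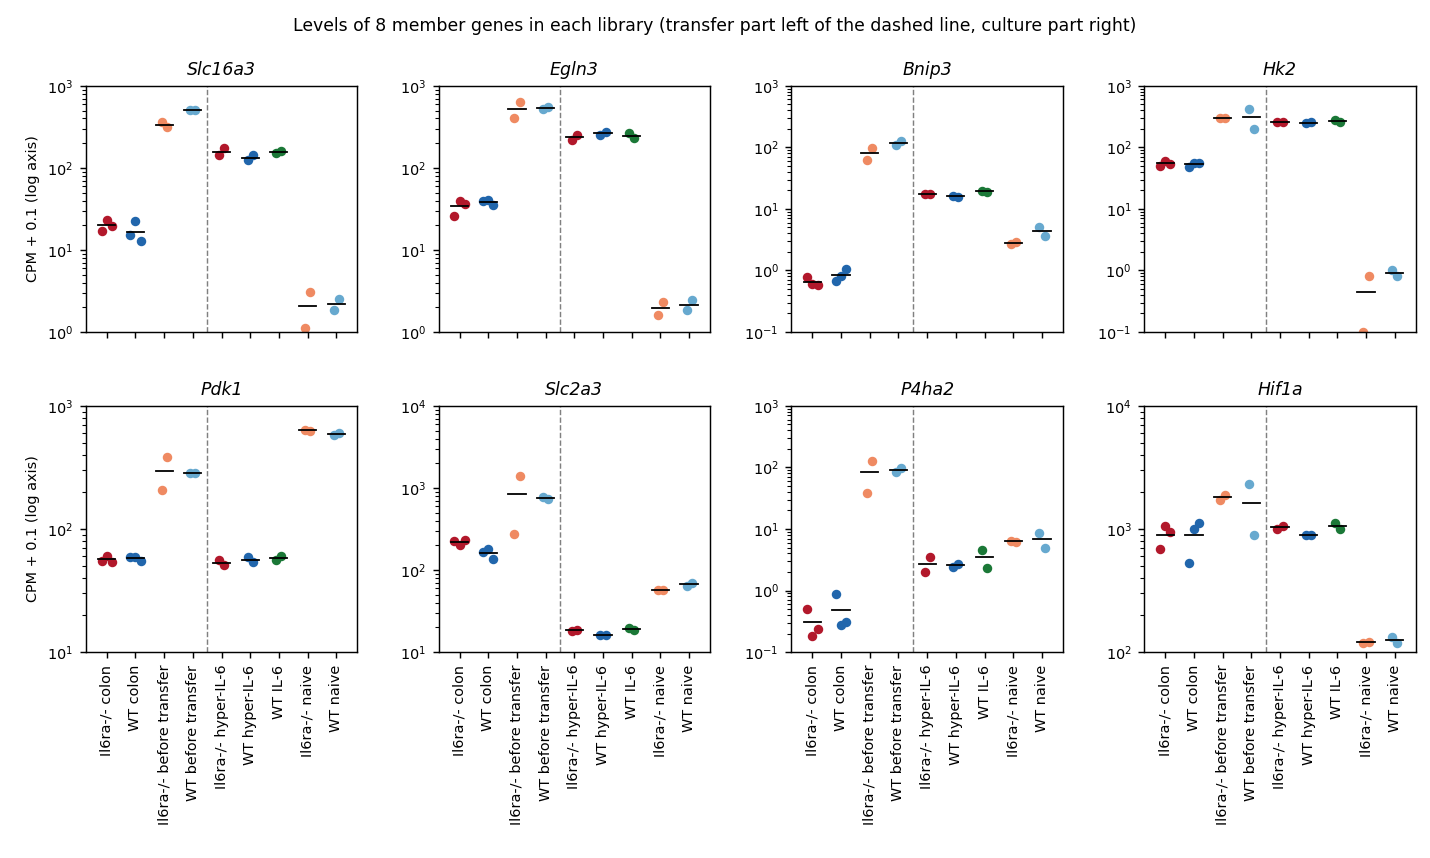
CPM + 0.1 on a log axis in each library (points) with the group mean (line) for 8 members, with the 4 transfer groups left of the dashed line and the 5 culture groups right of it. Slc16a3, Egln3, Bnip3 and Hk2 are lower in colon cells than before transfer, and lower in naive than in cultured cells of the culture part. Pdk1, Slc2a3 and P4ha2 are higher in naive than in cultured cells of the culture part.

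No member passed edgeR's test between the genotypes at any stage, and by DESeq2 the count was 0 too except for 2 members in naive cells, Pgam1 and Vegfa. In the colon 0 of 34 members differed between Il6ra-deficient and wild-type cells, where 0.155% of all genes did, and 0 had an unadjusted p under 0.05. Their log2 fold changes lay between -0.71 for Ldhb and 0.46 for Slc2a3 with a median of 0.01, and for 24 of 34 the 95% interval lay within 1 log2 unit of 0. Slc2a1 came first by edgeR's p, with 49.4, 63.6 and 66.3 CPM in Il6ra-deficient and 46.5, 52.0 and 46.9 CPM in wild-type colon libraries (log2 fold change 0.30, 95% interval -0.070 to 0.67, adjusted p = 1.0), followed by Ldhb (log2 fold change -0.71, 95% interval -1.69 to 0.28) and Pfkfb3 (-0.29, 95% interval -0.79 to 0.22). Before transfer 0 members differed, where 0.00703% of all genes did. An unadjusted p under 0.05 was found for 345 of all 14225 genes and for 3 members. These were Tpi1 (log2 fold change -0.57, 95% interval -1.09 to -0.041), Pkm (-0.51, 95% interval -1.002 to -0.017) and Slc16a3 (-0.59, 95% interval -1.17 to -0.002), each with an edgeR adjusted p of 0.982. The members' median there was -0.30, with -0.38 in experiment 1 and -0.14 in experiment 2, and 15 of 34 intervals lay within 1 log2 unit. It was -0.016 without the 2 wild-type libraries that stood apart and -0.012 without wild-type library 1 before transfer alone. Without Il6ra-deficient library 0 or 1 before transfer it was -0.090 or -0.47, and without wild-type library 0 it was -0.35. Each of these fits kept 1 library in the before-transfer group from which a library was left out. Counts over all genes also moved with 1 library left out, as given in the closing section. The member counts from such fits have no share of all genes beside them. The number of members at an unadjusted p under 0.05 was 10 without wild-type library 0 before transfer, 6 and 3 without Il6ra-deficient library 1 and 0, and 2 without wild-type library 1, with 0 past the adjusted threshold in each case (smallest edgeR adjusted p = 0.0612). The difference between genotypes in the change from before transfer to colon passed for 0 of 34 members, where 0% of all genes passed. An unadjusted p under 0.05 was found for 377 of all 14225 genes and, among the members, for 1, Slc16a3. With 1 library left out that number was between 0 and 10, highest without wild-type library 0 before transfer, where 0 members passed (smallest edgeR adjusted p = 0.0847).

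In the culture part the Il6ra-deficient and wild-type hyper-IL-6 cultures differed in 0 members, where 0% of all genes passed, and 0 members had an unadjusted p under 0.05. Hif1a had the smallest p, with 1007 and 1052 CPM in Il6ra-deficient and 899 and 889 CPM in wild-type cultures (log2 fold change 0.20, 95% interval -0.001 to 0.41), followed by Slc2a3 and Pkm, and 32 of 34 intervals lay within 1 log2 unit. Wild-type hyper-IL-6 and IL-6 cultures differed in 0 members, where 0% of all genes passed. At an unadjusted p under 0.05 stood 226 of all 14926 genes and 2 members (Hif1a and Slc2a3), with Bnip3 the next member. Again 32 of 34 intervals lay within 1 log2 unit. Hif1a had 899 and 889 CPM with hyper-IL-6 and 1118 and 991 CPM with IL-6 (log2 fold change -0.24, 95% interval -0.44 to -0.034). In naive cells 0 members passed, where 0.0067% of all genes did. An unadjusted p under 0.05 was found for 10 members, beside 1554 of all 14926 genes. Pgam1 had 4.49 and 4.50 CPM in Il6ra-deficient and 8.85 and 6.48 CPM in wild-type naive cells (log2 fold change -0.76 ± 0.16, SE, edgeR adjusted p = 0.202). Vegfa had 3.77 and 1.99 CPM in Il6ra-deficient naive cells, against 1.12 and 0.932 CPM in wild-type naive cells (log2 fold change 1.46 ± 0.32, SE, edgeR adjusted p = 0.209). Bnip3 had 2.58 and 2.78 CPM in Il6ra-deficient naive cells, against 5.03 and 3.52 CPM in wild-type naive cells (log2 fold change -0.66 ± 0.20, SE, edgeR adjusted p = 0.361). For all 3 genes the genotypes did not overlap, but with 2 libraries on each side this held for many members. Il6ra-deficient naive libraries lay wholly above the wild-type ones for 4 members and wholly below for 16. The share of all genes without overlap was not counted. Wild-type naive library 1, the higher of the pair for Pgam1 and Bnip3, had 5.80% of counts in ribosomal protein genes, against between 4.08% and 4.48% in the other naive libraries. The gain in culture differed between genotypes for 0 members, where 0% of all genes passed. At an unadjusted p under 0.05 stood 1267 of all 14926 genes and 9 members, with Pgam1, Vegfa and Bnip3 smallest among the members.

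**Figure D5:**
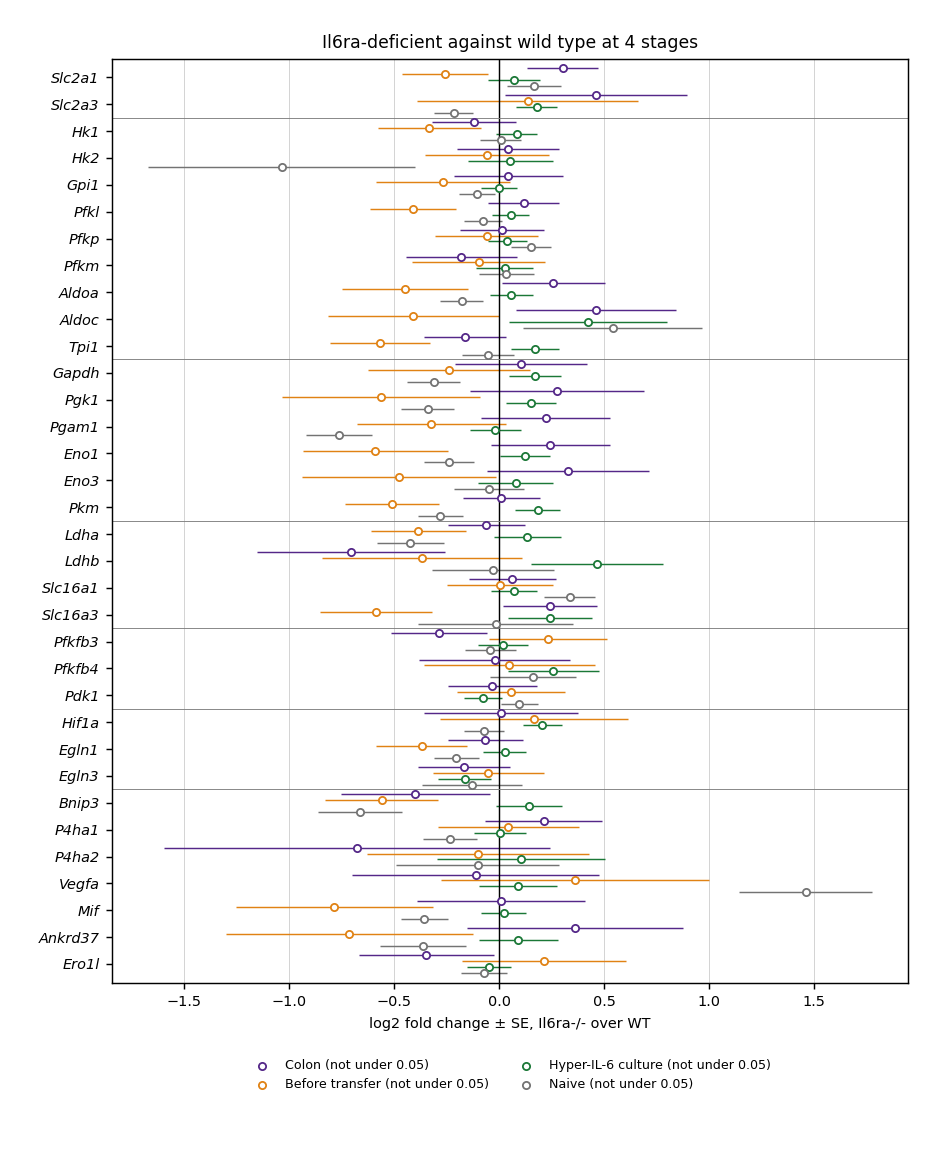
Log2 fold change (horizontal axis, bars show the SE of the fit) of each member (rows, grouped by role) in Il6ra-deficient over wild-type cells in the colon, before transfer, in hyper-IL-6 culture and in naive cells. All points are open because no member had an adjusted p under 0.05, most lie within 0.5 of 0, and Vegfa and Hk2 in naive cells lie farthest out.

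Other genes of the pathways were counted from lists chosen for the same field. These lists were chosen with earlier results of these data known, so their counts are not independent support. Of 18 other HIF targets, 15 fell and 0 rose in the Il6ra-deficient colon and 14 fell and 0 rose in the wild-type colon, where 13.2% and 15.8% of all genes were lower. Those of largest size in wild-type cells were Vldlr, Ak4 and Ndrg1 (log2 fold changes -8.26, -5.77 and -4.85). In wild-type hyper-IL-6 cultures 12 of the 18 were higher and 5 lower than in naive cells (36.8% and 33.5% of all genes), with Ak4, Plod2 and Bhlhe40 the largest (10.06, 8.01 and 7.08). Of 7 other HIF regulators, 1 was higher and 3 lower in the wild-type colon, and 1 higher and 3 lower in wild-type hyper-IL-6 cultures. Epas1, the gene of HIF-2alpha, was higher in the wild-type colon (log2 fold change 4.52 ± 0.56, SE, edgeR adjusted p = 0.000224) and lower in wild-type hyper-IL-6 cultures (log2 fold change -7.50). Epas1 is also expressed by endothelial and other non-T cells, and their part in its level was not tested.

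Neighbouring pathways were counted in the same way, beside 13.8% and 13.2% of all genes higher and lower in the Il6ra-deficient colon and 17.1% and 15.8% in the wild-type colon. For wild-type hyper-IL-6 cultures the shares of all genes were 36.8% higher and 33.5% lower. Of 23 tested genes of pyruvate entry and the citrate cycle, 2 were higher and 1 lower in the colon in each genotype and 20 did not pass. Idh3a, a subunit of isocitrate dehydrogenase, was higher in the wild-type colon (0.99 ± 0.28, SE, adjusted p = 0.0213), and in wild-type hyper-IL-6 cultures 13 of the 23 were higher and 2 lower. Of 7 pentose phosphate genes, 2 fell in the Il6ra-deficient colon and 3 (Pgls, Tkt and Pgd) in the wild-type colon, and 6 rose and 1 fell in wild-type hyper-IL-6 cultures. Of 12 nutrient and growth control genes, 1 was higher and 3 lower in the Il6ra-deficient colon, 1 higher and 4 lower in the wild-type colon, and 9 higher and 1 lower in wild-type hyper-IL-6 cultures. Among them Myc and Irf4, transcription factors of T cell activation, fell in the wild-type colon (log2 fold changes -2.10 and -2.55) and rose in wild-type hyper-IL-6 cultures (2.43 and 6.50). Of 8 tested genes of brakes on glycolysis and gluconeogenesis, 2 were higher and 2 lower in the Il6ra-deficient colon and 2 higher and 3 lower in the wild-type colon. Of 6 tested in the culture part, 4 were higher and 2 lower in wild-type hyper-IL-6 cultures. Txnip, a brake on glucose uptake, fell in wild-type hyper-IL-6 cultures (-4.29 ± 0.12, SE, adjusted p = 6.72e-10). Among other isoforms of glycolytic genes, 9 of 17 were tested in the transfer part, with 3 higher and 3 lower in the Il6ra-deficient and 2 higher and 4 lower in the wild-type colon.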

How the data were processed

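RNA of mouse CD4 T cells was read in 20 libraries. The authors deposited raw read counts per gene, 1 table per library. The build named is GRCm38 (mm10) and the software is HTSeq 0.7.2 and STAR 2.5.3, with SAMtools 0.1.18, R 3.4.3 and DESeq2 1.18.1, per the submitters' processing notes. The strand setting and annotation release are not given in the sources used here, so counts of overlapping genes and of genes with near-identical copies are uncertain. Summary lines without a gene were left out of library sizes (reads in no gene were between 18.1% and 31.9% of unique reads, ambiguous reads between 0.526% and 0.844%). Symbols came from GENCODE and promoter sequences from RefSeq (GRCm38.p6).

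The transfer part (10 libraries) and the culture part (10 libraries) were fitted apart with edgeR 4.0.16 in R 4.3.3 by the quasi-likelihood F test, with TMM scaling, filterByExpr and group as the only factor. This left 14225 and 14926 genes with common dispersions equal to coefficients of variation of 0.309 and 0.124. Genes passed at a Benjamini-Hochberg adjusted p under 0.05 over all genes tested, and n is the number of libraries. Levels between genes were compared as CPM per kilobase of exon. The test was tested on simulated counts. Alternatives were RLE and total-count scaling, no filter, DESeq2 1.42.0, an experiment term, the replicate number as a block, the compared groups only, each library left out and both doubted libraries left out. The compared groups only with the block was added after seeing the data.

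The labels tie replicate 0 to experiment 1 and replicates 1 and 2 to experiment 2 of the transfer part. Deviations of same-numbered libraries of the 2 genotypes correlated across genes at 0.58, 0.237 and 0.183 in the colon and at 0.43 before transfer. The numbers were taken to pair libraries within a stage. Libraries of unlike number were not compared, so the correlations cannot tell such pairs from a shared difference between the experiments. Libraries of 1 group always differed by more than sampling noise. Values in every library are given, in each role group, for the 2 largest changes and the smallest in wild-type colon against before transfer and in wild-type hyper-IL-6 culture against naive, for members that moved against most others, and for the smallest p between genotypes. The members and all gene lists were chosen with earlier results of these data known.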

Additional observations from a re-analysis of the deposited data

How the results depend on the processing

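The numbers of members that passed in the colon and culture comparisons stayed within 1.5 times the values above under every alternative run, and no member that passed changed sign. Leaving out 1 library at a time gave between 25 and 29 members in the Il6ra-deficient colon, 28 and 29 in the wild-type colon, 29 and 31 in Il6ra-deficient hyper-IL-6 cultures, 28 and 30 in wild-type hyper-IL-6 cultures and between 28 and 32 in IL-6 cultures. Of the comparisons with 0 members, 2 changed. Between Il6ra-deficient and wild-type naive cells, 3 members passed with no filter on low counts (Pgam1 and Ldha lower, Vegfa higher), 2 with DESeq2 (Pgam1 and Vegfa) and between 0 and 4 with 1 library left out (Pgam1, Ldha, Bnip3 and Mif without wild-type naive library 2). For the difference between genotypes in the gain in culture, 2 passed with no filter (Ldha and Vegfa) and between 0 and 3 with 1 library left out. The cause was not tested. With the replicate number as a block, 0 members passed in any comparison between genotypes and 29 were lower in the colon in each genotype, while in IL-6 cultures 24 were higher and 6 lower, with Hk1 and P4ha2 lost. In the culture part numbers are labels only. With the compared groups only, Hk1, Aldoc, Pfkfb3 and P4ha2 lost their calls in IL-6 cultures (edgeR adjusted p = 0.14, 0.0631, 0.0627 and 0.0643). Ankrd37 lost its call in wild-type hyper-IL-6 cultures (0.0796) and Eno3 in the wild-type colon (0.0775). Aldoc then passed in Il6ra-deficient hyper-IL-6 cultures and Hif1a in the Il6ra-deficient colon. Total-count scaling shifted the median of all genes to -0.15 in the Il6ra-deficient and -0.16 in the wild-type colon and to between 0.13 and 0.14 in culture, and 31 members were then lower in the colon of each genotype. Counts over all genes moved more: between colon genotypes 22 genes passed, against 120 with no filter, 133 with DESeq2, 39 with the block, 42 with the experiment term, 108 with the compared groups only, 247 with the compared groups only and the block, and between 0 and 8 with 1 library left out. Before transfer 1 gene passed, against 17 with no filter, 24 with DESeq2, 21 with the compared groups only and the block, and between 0 and 1152 with 1 library left out. In naive cells 1 gene passed, against 439 with no filter, 93 with DESeq2, 5 with the compared groups only, and between 0 and 902 with 1 library left out. The comparisons with 0 genes gave 13 (genotype by stage), 74 (hyper-IL-6 cultures of the 2 genotypes), 36 (wild-type hyper-IL-6 against IL-6) and 271 (genotype by culture) with no filter, 12, 3, 1 and 45 with DESeq2, and up to 597 and 392 with 1 library left out for genotype by stage and by culture. The compared groups only gave no separate value for genotype by stage, which uses all 10 libraries. Members near 1 count per library in the colon, P4ha2 above all, have folds limited by depth.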
